A study of Mus musculus with 20 samples.

Results

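The Slco genes encode the organic anion transporting polypeptides, membrane carriers of steroid conjugates, bile acids, thyroid hormones, prostaglandins and many drugs. Of the 24411 genes in the count table, 6 were followed here: Slco1a1, Slco1a6, Slco2a1, Slco2b1, Slco3a1 and Slco4c1. Slco1a1 was selected on measured values, as the transporter gene with the largest excess of males over females in these kidneys, and the others were added by name with those values known. The level of every member in males against females is therefore given as a description, without a test. The tests below concern mutants against controls and the sex-by-genotype term.

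Kidneys were taken from 20 mice at P125, where P stands for postnatal day, and sequenced as whole-kidney RNA, with 1 library per mouse and 5 mice in each of 4 groups. All mice carried the floxed Pkd2 allele on both chromosomes (Pkd2 fl/fl) and received doxycycline (DOX) at 50 mg/kg by intraperitoneal injection from P27 to P29. The male and female mutants carried both Pax8rtTA and TetOCre, and the male and female controls were littermates that lacked one of these transgenes. The Pax8 promoter drives the doxycycline-dependent activator along the whole renal tubule, so the deletion was not directed at endothelium, stroma or immune cells. A whole-kidney level cannot tell fewer cells of a type from less RNA per cell. There were 3 litters (A, B and C below), spread unevenly over the groups: male controls numbered 3, 1 and 1, male mutants 2, 2 and 1, and both female groups 1, 3 and 1.

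In the kidney these carriers sit mostly on proximal tubule cells, where they take up organic anions from the blood or the tubular fluid and work beside the anion exchangers of the Slc22 family and efflux pumps of the ABC family. They exchange substrates without direct use of ATP. Several members of the Slco1a branch are known in rodents for levels that follow sex hormones and growth hormone.

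The libraries held between 11307741 and 19324073 counts. Female mutant 4 stood apart, with 14850 genes detected against 16776 to 17724 in the other mice and 76 genes at a single count against 708 to 859, so the genotype values of the members, the gene lists and the most alike genes are also given without it, while levels and sex differences are given with all mice. Its kidney weight was also the smallest share of body weight among mutants, at 0.836%, below the 0.896% of male control 5. Values without it thus also leave out the mutant with the smallest kidney share. Pkd2, the targeted gene, was at 250 to 332 CPM (counts scaled to the library total by the TMM method) in male controls and 110 to 133 in male mutants. It was at 193 to 306 CPM in female controls and 93.4 to 181 in female mutants, lower in all mutants together by 1.06 on the log2 scale (SE 0.120, adjusted p = 9.7e-06, edgeR), and at -1.13 without female mutant 4. The 12 proximal tubule markers summed to between 11913 and 66570 CPM over all kidneys and none of them was at 0 in any group, as the labelled tissue requires.

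Slco1a1 and Slco1a6 lie in the Slco1 gene cluster on chromosome 6, and Slco4c1 lies on chromosome 1. Their upstream sequences are shown because the largest sex difference and the lower levels in mutants concern these 3 genes. Each is the 250 bases before the transcription start in RefSeq (GRCm38.p6, the mm10 build of the counts), at chr6:141946963-141947212 for Slco1a1, chr6:142186150-142186399 for Slco1a6 and chr1:96872172-96872421 for Slco4c1, all on the minus strand. The Slco1a6 window lies inside the GENCODE span of its gene, chr6:142085761-142208521, so the start used is not the outermost one there. Capitals mark matches to any of 4 motifs on either strand, and overlapping matches form 1 run. The motifs were the TATA motif TATAA, whose other strand reads TTATA, the androgen receptor half-site AGAACA, whose other strand reads TGTTCT, the STAT motif TTCNNNGAA, which reads alike on both strands, and the HNF1 half-site GTTAAT, whose other strand reads ATTAAC.
Slco1a1: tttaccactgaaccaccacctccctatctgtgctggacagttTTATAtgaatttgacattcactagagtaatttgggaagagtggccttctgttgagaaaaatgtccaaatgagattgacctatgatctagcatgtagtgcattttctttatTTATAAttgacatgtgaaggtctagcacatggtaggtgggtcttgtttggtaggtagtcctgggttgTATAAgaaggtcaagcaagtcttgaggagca
Slco1a6: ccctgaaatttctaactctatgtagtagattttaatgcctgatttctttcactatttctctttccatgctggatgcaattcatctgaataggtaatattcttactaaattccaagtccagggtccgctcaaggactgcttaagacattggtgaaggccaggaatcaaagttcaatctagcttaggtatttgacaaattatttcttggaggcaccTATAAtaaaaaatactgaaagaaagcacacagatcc
Slco4c1: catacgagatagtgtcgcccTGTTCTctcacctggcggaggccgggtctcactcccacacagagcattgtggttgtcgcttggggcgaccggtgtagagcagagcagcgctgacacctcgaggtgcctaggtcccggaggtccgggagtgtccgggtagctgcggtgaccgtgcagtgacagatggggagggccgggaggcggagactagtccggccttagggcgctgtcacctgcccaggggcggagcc

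The first base of TATAA was at position -31 in Slco1a1 and at -36 in Slco1a6, counted from -1 at the last base before the start. Of 32851 promoter windows, 3.52% had TATAA on the gene strand between -40 and -16. Slco2a1 had it at -29, and neither Slco4c1 nor any of the Slco2b1 windows had it there. The Slco1a1 window held 0 CpG dinucleotides at 40.4% GC and that of Slco1a6 held 1 at 36.4% GC, whereas Slco4c1 had 19 at 66.4% GC (medians of all windows, 6 and 52.4%). The androgen receptor half-site matched at -230 in Slco4c1 and at -96 in a window of Slco2b1, and did not match in the windows of Slco1a1, Slco1a6 and Slco2a1. Such a 6-base match was present in 16.1% of all windows, TATAA in either direction in 22.8%, the STAT motif in 7.02% and the HNF1 half-site in 6.43%. Windows were found for 5 of the 6 members. That of Slco2a1 and some of those of Slco2b1 also lie inside the GENCODE spans of their genes. The positions and CpG counts hold for the RefSeq starts used.

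Slco1a1, at chr6:141907282-141946962 on the minus strand with 5276 exon bases, encodes Oatp1a1, a carrier of steroid sulfates and glucuronides on the brush border of the proximal tubule. In male controls it stood at 484, 561, 422, 577 and 741 CPM, and in male mutants at 322, 822, 514, 715 and 979 CPM. Female controls had 0, 1, 4, 1 and 0 counts, and female mutants 5, 2, 6, 0 and 8 counts. Every male kidney thus held at least 5627 counts and no female kidney held more than 8.

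The mean Slco1a1 level was 557 ± 120 CPM (SD, n = 5) in male controls and 0.0700 ± 0.0970 CPM in female controls, and 671 ± 258 against 0.228 ± 0.179 CPM in mutants. Pooled over mice, 39586 counts in control males stood against 6 in control females, a ratio of 7531 after scaling (95% interval 3460 to 20524, counting error only). In mutants 53584 counts stood against 21, a ratio of 2714 (1775 to 4384). Of the 6 counts in control females, 4 came from female control 3, and without it the ratio was 17825 (95% interval 4934 to 147194), so the size of the ratio rests on that mouse. Leaving out any other control gave 6115 to 7970, and leaving out any mutant gave 2342 to 3509. The fitted log2 difference was 12.85 in controls and 11.40 in mutants, values that depend on how near-zero counts are treated. In controls it was 13.90 without female control 3 and 16.21 without male control 4. The sum of the 12 proximal tubule markers was also higher in males, at 54118 to 66570 CPM in male controls and 25097 to 33537 in female controls. These 12 include Slc7a13, itself far higher in males, and Kap, the kidney androgen-regulated protein, so the sum does not measure tubule content alone. The part of tubule content in the sex differences of Slco1a1, Slco3a1 and Slco4c1 was not tested. Slco1a1 ranked first of 350 transporter symbols in controls and first of 347 in mutants, but it was chosen for this excess, so nothing is read from the rank. The next, Slc7a13, an amino acid carrier named after its values were seen, was at 9.40 and 9.44.

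**Figure D1:**
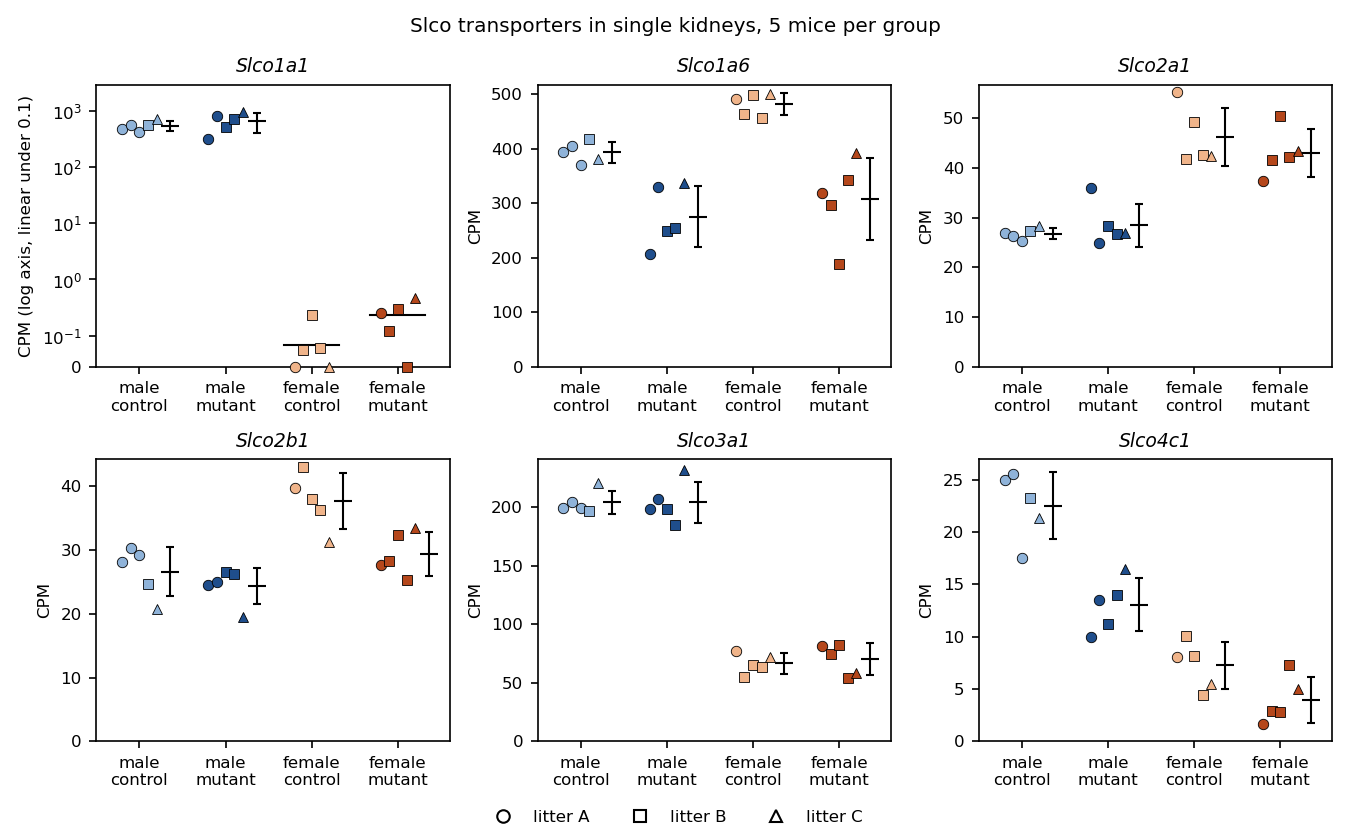
CPM of the 6 members in each kidney, by group, with the marker shape for litter and a bar for mean ± SD beside the points (the mean alone for Slco1a1 in females, whose axis is logarithmic above 0.1 CPM). Males and females do not overlap for Slco1a1, Slco2a1, Slco3a1 and Slco4c1 in either genotype, and mutants lie below controls of their sex without overlap for Slco1a6 in both sexes and for Slco4c1 in males.

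The groups of males overlapped for Slco1a1, and mutants did not differ detectably from controls in males (log2 fold change 0.22, SE 0.206, 95% interval -0.24 to 0.67, adjusted p = 0.503, edgeR). The spread was wider among male mutants, with a coefficient of variation of 38.5% against 21.6% in male controls. The highest value of each male group came from litter C, and the lowest, 322 CPM, came from male mutant 1, whose kidney weight was the largest share of body weight in the series at 2.15%. That share was 1.79%, 1.54% and 1.22% in male mutants 3, 4 and 2, and 1.71% in male mutant 5, which had the highest Slco1a1 level. A relation to kidney size was not tested. Within litters A, B and C the log2 CPM of male mutants minus controls was 0.08, 0.07 and 0.40. In females, Slco1a1 had too few counts for the test, and without the filter on low counts the log2 fold change was 1.57 (SE 1.05, adjusted p = 0.50). Over all 20 mice it was 0.29 (SE 0.212, adjusted p = 0.350), and again 0.29 without female mutant 4 (adjusted p = 0.302). Slco1a1 passed the filter in the fits of all mice only through its male counts, so this value rests mainly on the males. The sex-by-genotype term was -1.37 with a 95% interval from -3.47 to 0.74. At the depth of these libraries a change among the few female counts was not detectable.

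The other genes of the cluster were expressed far lower than Slco1a6 in both sexes and far lower than Slco1a1 in males. In female controls the means of Slco1a4 and Gm6614 were above that of Slco1a1, at 0.493 and 0.214 against 0.0133 CPM per kb of exon. Slco1a4, a bile acid and digoxin carrier, ranged from 25 to 72 counts in males and from 25 to 69 in females, without the male excess of Slco1a1. Slco1b2, known as a hepatocyte carrier, had 0 to 25 counts in males and 0 to 2 in females, and Slco1a5 and Slco1c1 had at most 12 in any mouse. Gm6614, a predicted gene between Slco1a1 and Slco1a6, had 10 to 41 counts in males and 2 to 18 in females. Of the 50-base windows of Slco1a1 transcripts, 84 of 5321 also occur in Slco1a4. For Slco1a6 the share with a copy elsewhere was 6.59%, most often in Gm6614.

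**Figure D2:**
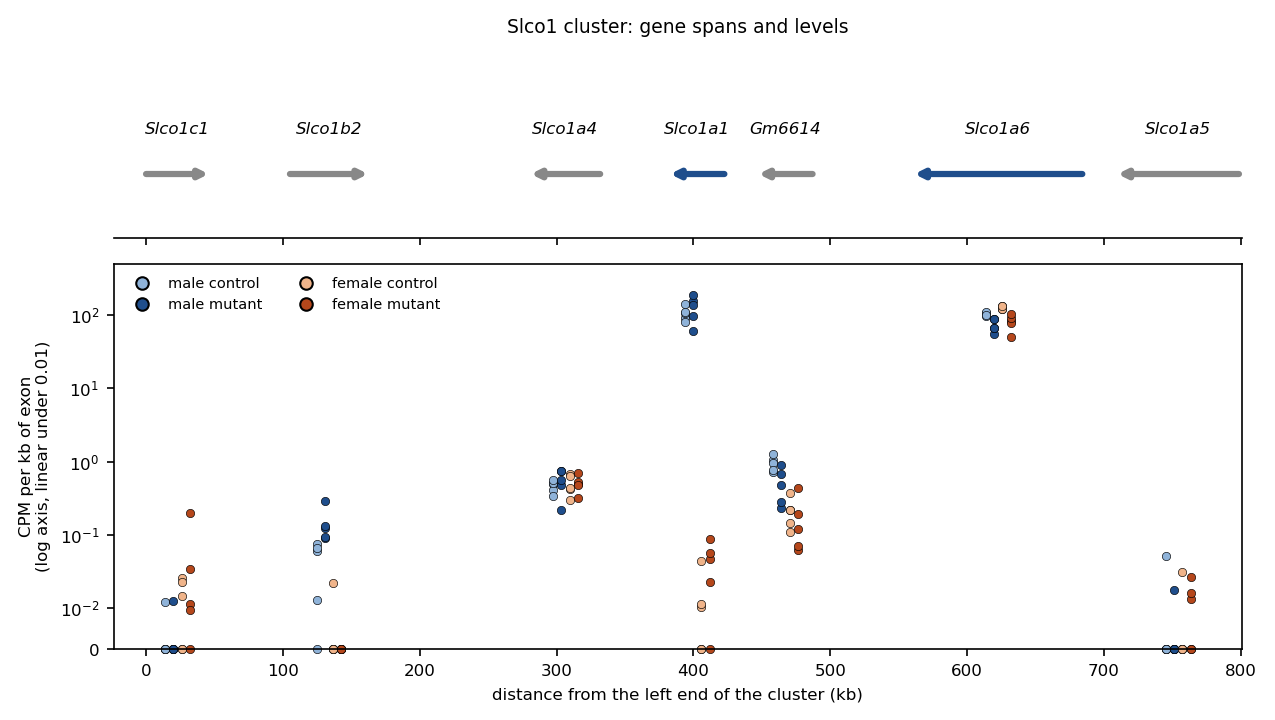
The Slco1 cluster, with gene spans as arrows in the direction of transcription (members in blue) against distance in kb, above the level per kb of exon in each kidney on an axis that is logarithmic above 0.01. Slco1a1 spans the whole scale between males and females, whereas Slco1a6, in the same cluster and on the same strand, lies between 49.5 and 131 CPM per kb in every kidney.

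Slco1a6, at chr6:142085761-142208521 on the minus strand, encodes Oatp1a6, a kidney member of the same branch. Male controls stood at 394, 404, 370, 418 and 381 CPM and male mutants at 206, 329, 249, 255 and 336 CPM. Female controls stood at 491, 463, 498, 456 and 499 CPM and female mutants at 319, 296, 189, 343 and 391 CPM. In each sex every mutant was below every control of that sex.

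Slco1a6 fell in all mutants against all controls, by 0.58 on the log2 scale (SE 0.102, adjusted p = 3.9e-04), or 0.667 of the control level. Within males the log2 fold change was -0.53 (SE 0.119, adjusted p = 0.0102) and within females -0.63 (SE 0.145, adjusted p = 0.0310), both short of the 0.01 threshold. Without female mutant 4 the value in females was -0.72 (adjusted p = 0.0103) and that over all mice -0.62 (adjusted p = 2.0e-04). Without male mutant 1 or male mutant 2 the comparison in males passed the threshold, with -0.41 (adjusted p = 0.00953) and -0.66 (adjusted p = 0.00137). Leaving out any other male did not bring it there, and the adjusted p was highest without male control 4 (log2 fold change -0.44, adjusted p = 0.0782, edgeR). In females, leaving out 1 mouse gave -0.72 to -0.53, with adjusted p from 0.0103 to 0.0953 (edgeR).

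Mutants were below controls within every litter for Slco1a6, by differences of log2 CPM of -0.58, -0.73 and -0.18 in males and -0.61, -0.81 and -0.35 in females of litters A, B and C. The control groups were tight, with coefficients of variation of 4.81% in males and 4.27% in females, against 20.3% and 24.5% in mutants. The sex-by-genotype term was 0.13 (95% interval -0.31 to 0.57). Female controls were above male controls without overlap at means of 481 ± 20.6 and 393 ± 18.9 CPM, a fitted log2 difference of -0.25 for males over females, and mutants of the sexes overlapped at 308 ± 75.3 and 275 ± 55.9 CPM.

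The summed level of 8 tubule injury markers, among them Havcr1 and Lcn2, ran opposite to Slco1a6 among mutants, fully in males and in part in females. In male mutants the sums were 10207, 2204, 4156, 3630 and 2009 CPM in mice 1 to 5, so the order of the injury sums was the reverse of that of Slco1a6. In female mutants they were 11056, 8391, 9699, 3268 and 2936 CPM, and the 2 lowest sums again belonged to the 2 highest Slco1a6 levels, while the lowest Slco1a6 level was in mouse 3 and the highest sum in mouse 1. Controls had 1033 to 1311 CPM in males and 2230 to 2744 CPM in females. The part of injury in the Slco1a6 level was not tested.

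Slco4c1, at chr1:96816270-96872171 on the minus strand, encodes Oatp4c1, a basolateral carrier of the proximal tubule that takes up digoxin, thyroid hormone and uraemic solutes. Male controls stood at 24.9, 25.5, 17.5, 23.2 and 21.3 CPM and male mutants at 9.97, 13.5, 11.2, 14.0 and 16.5 CPM. Female controls stood at 8.07, 10.1, 8.19, 4.47 and 5.53 CPM and female mutants at 1.66, 2.94, 2.80, 7.28 and 5.05 CPM. Male mutants were all below male controls, and the female groups overlapped, with female mutant 4 the highest of its group.

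Slco4c1 fell in male mutants, by 0.82 on the log2 scale (SE 0.148, adjusted p = 0.00395), and in all mutants together, by 0.87 (SE 0.203, adjusted p = 0.00357). In females the log2 fold change was -0.93 (SE 0.376, 95% interval -1.76 to -0.10, adjusted p = 0.186), and -1.26 without female mutant 4 (adjusted p = 0.0332). The log2 fold change in males stayed below 0 when 1 mouse was left out, between -0.93 and -0.70, but its call did not always hold. It was -0.77 (adjusted p = 0.0113) without male control 1, -0.79 (adjusted p = 0.0299) without male control 4, the only male control of litter B, and -0.77 (adjusted p = 0.0107) without male mutant 3. Over all mice it was -0.999 without female mutant 4 (adjusted p = 4.9e-04). Without male control 4 the call over all mice was lost as well (log2 fold change -0.87, adjusted p = 0.0114).

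Within litters A, B and C, Slco4c1 in mutants minus controls was -0.94, -0.88 and -0.37 on the log2 CPM scale in males and -2.19, -0.84 and -0.13 in females, with litter C the smallest in both sexes. The sex-by-genotype term was 0.15 (95% interval -0.72 to 1.02). Males were above females without overlap in both genotypes, at 22.5 ± 3.23 against 7.27 ± 2.25 CPM in controls and 13.03 ± 2.54 against 3.94 ± 2.23 CPM in mutants. The fitted log2 differences were 1.68 and 1.90, beside proximal tubule sums that were likewise higher in males. These sums include Kap and the male-high Slc7a13. The antisense gene Panct2 overlaps the span of Slco4c1 without sharing an exon base, and it had 1754 counts over all mice. Whether the counting used strand is not given in the sources used here.

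Slco3a1, at chr7:74275419-74554780 on the minus strand, encodes Oatp3a1, a broadly expressed carrier of prostaglandins and thyroxine. Male controls ranged from 196 to 221 CPM and male mutants from 185 to 232, while female controls ranged from 54.5 to 77.3 and female mutants from 54.5 to 82.6. The means were 204 ± 9.81 and 204 ± 17.4 CPM in males and 66.5 ± 8.65 and 70.3 ± 13.2 CPM in females. Slco3a1 was thus high in males of both genotypes, with fitted log2 differences of 1.59 in controls and 1.52 in mutants.

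Mutants and controls overlapped in both sexes for Slco3a1. The log2 fold change was 0.12 in females (SE 0.144, adjusted p = 0.726) and 0.06 over all mice (SE 0.0732, 95% interval -0.10 to 0.21, adjusted p = 0.628). In males its 95% interval ran from -0.12 to 0.13. Without female mutant 4 the value was 0.19 in females (adjusted p = 0.413) and 0.08 over all mice (adjusted p = 0.363).

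Slco2a1, at chr9:102988712-103096002 on the plus strand, encodes the prostaglandin transporter PGT, which clears prostaglandins from the extracellular space and is found in endothelium and collecting duct. Male controls ranged from 25.3 to 28.2 CPM and male mutants from 24.8 to 35.9, and female controls from 41.8 to 55.2 and female mutants from 37.5 to 50.5. Females were above males without overlap in both genotypes, with fitted log2 differences for males over females of -0.78 and -0.59. The highest male value, 35.9 CPM, belonged to male mutant 1, the mouse with the lowest Slco1a1, Slco1a6 and Slco4c1 of its group.

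No genotype difference was detected for Slco2a1. The log2 fold change was 0.09 in males (SE 0.107, adjusted p = 0.595), -0.07 in females (SE 0.124, adjusted p = 0.837) and within a 95% interval of -0.17 to 0.17 over all mice. It was -0.05 in females (adjusted p = 0.845) and 0.01 over all mice (adjusted p = 0.937) without female mutant 4. The 10 endothelium markers summed to 479 to 569 CPM in male controls and 709 to 820 CPM in female controls, and thus were higher in females as Slco2a1 was. In mutants the sums were 568 to 725 CPM in males and 615 to 779 CPM in females. None of these markers was at 0, and the part of endothelial content in the Slco2a1 level was not tested.

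Slco2b1, at chr7:99657804-99711340 on the minus strand, encodes Oatp2b1, a widely expressed carrier of steroid sulfates. Male controls ranged from 20.8 to 30.3 CPM, male mutants from 19.4 to 26.5, female controls from 31.2 to 43.0 and female mutants from 25.3 to 33.4. Female controls were above male controls without overlap (37.6 ± 4.40 against 26.6 ± 3.86 CPM), and the mutants of the sexes overlapped (29.4 ± 3.39 against 24.4 ± 2.87 CPM). The log2 fold change of mutants was -0.12 in males (SE 0.0798, adjusted p = 0.308), -0.32 in females (SE 0.123, adjusted p = 0.166) and -0.23 over all mice (SE 0.0753, adjusted p = 0.0283), none of which passed 0.01. It was -0.26 in females (adjusted p = 0.177) and -0.20 over all mice (adjusted p = 0.0380) without female mutant 4. The antisense gene Gm15635, which has no row in the count table, shares 471 exon bases with Slco2b1, and reads of the overlap could not be told apart without strand.

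In mutants against controls, 1 of the 6 members tested was called in males, where 8.46% of all genes tested were called at an adjusted p under 0.01, and 2 of 6 had no overlap between the groups, where 15.3% of genes had none. In females 0 of 5 were called by edgeR, against 0.637% of genes (92, or 866 without female mutant 4), 3 had an unadjusted p under 0.05 (beside 2979 of 14439 genes), the DESeq2 Wald test called 1 (beside 928 genes), and 1 of the 6 members had no overlap against 7.14% of genes. Over all mice 2 of 6 were called against 15.9% of genes, both lower in mutants, and 0 of 6 had no overlap against 1.25%. Slco1a1 is among the 6 tested over all mice only through its male counts. For the sex-by-genotype term 0 of 6 were called by edgeR or by DESeq2 and 0 had an unadjusted p under 0.05, with 0% of all genes called by edgeR, 18 genes called by DESeq2 and 618 of 14820 at an unadjusted p under 0.05 in edgeR. The median log2 fold change of the members was -0.06 in males, -0.32 over the 5 tested in females and -0.12 over all mice, beside medians of all genes near 0 (-0.0020, -0.0029 and -0.01).

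In males against females, 6 of 6 members had no overlap in controls, 3 higher and 3 lower in males, beside 24.1% of genes, and 4 of 6 in mutants beside 13.3%, and nothing is read from these shares because the choice of members used this contrast. The comparisons of genotype and of sex share samples, as do those within a sex and over all mice.

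**Figure D3:**
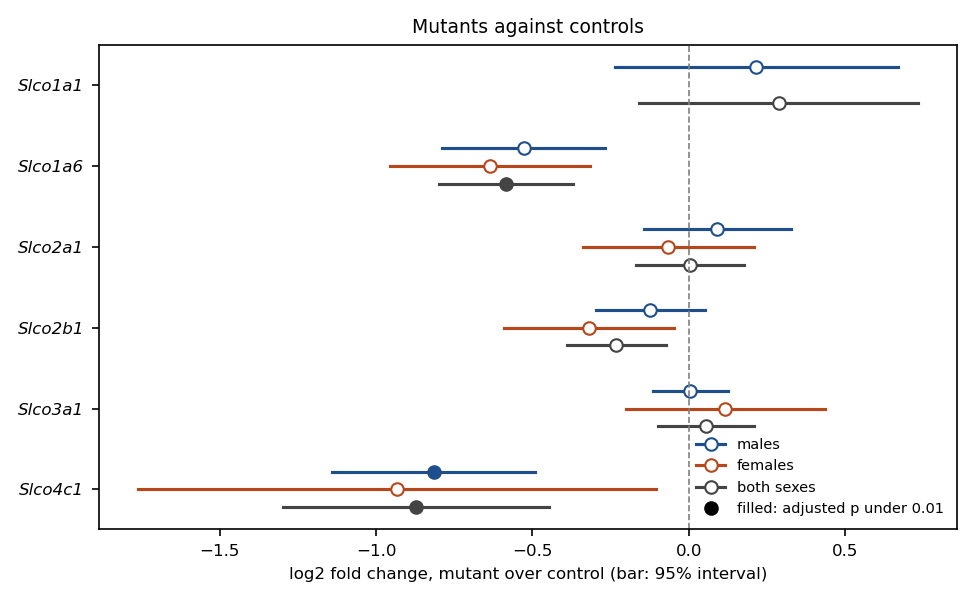
Log2 fold change of mutants over controls for each member in males, females and both sexes, with 95% intervals as bars and filled points for an adjusted p under 0.01. Slco1a6 and Slco4c1 lie below 0 in all comparisons, from -0.53 to -0.93, and Slco1a1 in females has no point because its counts were too few.

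Compared per length, as CPM per kb of exon, Slco1a1 and Slco1a6 made up most of the family in males. In male controls they stood at 106 ± 22.8 and 103 ± 4.97 CPM per kb, ranges that overlapped, followed by Slco3a1 at 24.1 ± 1.16, Slco4c1 at 4.59 ± 0.658 and Slco2b1 at 4.46 ± 0.649. Slco4a1, a thyroid hormone carrier that is no member, was at 2.35 ± 0.398 and Slco2a1 at 1.98 ± 0.0798. In female controls Slco1a6 led alone at 126 ± 5.40, before Slco3a1 at 7.85 ± 1.02, Slco2b1 at 6.31 ± 0.738, Slco4a1 at 3.90 ± 1.25, Slco2a1 at 3.41 ± 0.435 and Slco4c1 at 1.48 ± 0.459.

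The Slco genes and Gm6614 together summed to 248 ± 24.7 CPM per kb in male controls and 150 ± 7.13 in female controls, and to 236 ± 64.1 and 104 ± 18.3 in mutants. Slco1a1 made up 42.2% ± 4.89 of that sum in male controls and 52.3% ± 7.62 in male mutants, and Slco1a6 made up 84.2% ± 1.02 in female controls and 77.1% ± 6.40 in female mutants. Ranked by CPM among 14820 genes, Slco1a1 was 237th in male controls and 14788th in female controls, while Slco1a6 was 389th and 232nd.

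**Figure D4:**
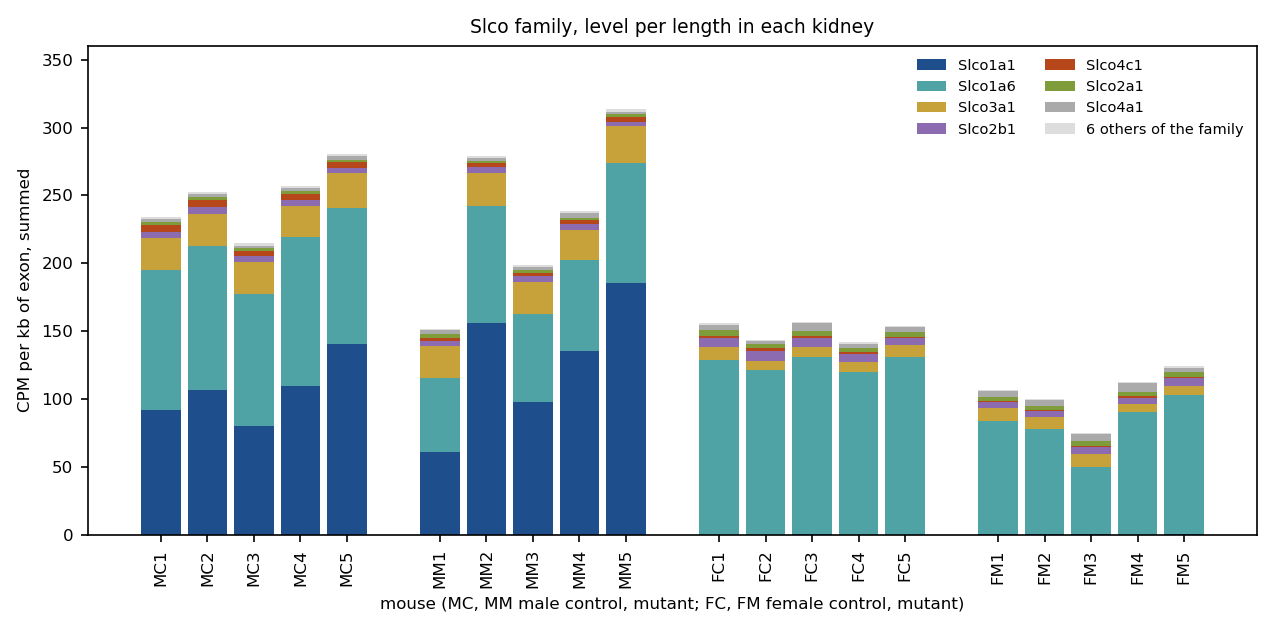
CPM per kb of exon of the Slco genes and Gm6614, stacked for each of the 20 kidneys. Slco1a1 forms a large share of every male bar, from 37.2% in the lowest male control to 59.2% in the highest male mutant, and is not visible in any female bar, where Slco1a6 forms most of the level.

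Of the 11 other Slco genes listed, 9 were in the table, Slco6b1, Slco6c1 and Slco6d1 had 0 counts in every mouse, and 2, Slco1a4 and Slco4a1, had enough counts for the tests. Neither was called. Over all mice the log2 fold change was 0.13 for Slco1a4 (SE 0.209, adjusted p = 0.688) and 0.23 for Slco4a1 (SE 0.156, adjusted p = 0.307). Slco4a1 ranged from 9.21 to 16.8 CPM in males and from 11.5 to 30.6 CPM in females.

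Among 18 tested carriers that handle organic anions beside the Slco genes, 1 was higher and 4 were lower in all mutants, beside 15.9% of all genes called in either direction (median log2 fold change -0.10, beside -0.01 for all genes). Slc22a13, a urate and nicotinate exchanger, fell by 0.72 on the log2 scale (SE 0.110, adjusted p = 1.2e-04), and Slc22a12, the urate exchanger of the brush border, fell by 0.68 (SE 0.121, adjusted p = 4.4e-04). The others, named after their values were seen, were Slc13a3, the dicarboxylate carrier that supplies anion exchange, at -0.69, Slc22a7, the organic anion exchanger Oat2, at -0.62, and Slc51a, a subunit of the basolateral bile acid and steroid exporter, at 0.50. In males 2 were higher, the efflux pumps Abcb1a at 0.87 and Abcb1b at 1.04, and 3 were lower, Slc13a3, Slc22a13 and Slc22a7, beside 8.46% of all genes, and these too were named after their values were seen. Neither pump was called over all mice, and in females without female mutant 4 Abcb1a was at -0.32 and Abcb1b at 0.0077.

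Of 14 tested genes of prostaglandin synthesis, breakdown and reception, 2 rose and 2 fell in all mutants, beside the same 15.9% of all genes. Ptgds, the prostaglandin D synthase, rose by 3.12 (SE 0.168, adjusted p = 3.5e-09), with no overlap in either sex, and Ptgr1, which reduces prostaglandin metabolites, rose by 0.47, while the cyclooxygenase Ptgs1 fell by 0.30 and the prostaglandin E synthase Ptges fell by 0.37. These stood beside Slco2a1, whose level did not differ detectably. Ptgr1, Ptgs1 and Ptges, and likewise Dio2, Crym, Thra and Hsd17b11, were named after their values were seen. Of 9 tested thyroid hormone genes, 3 passed beside 15.9% of all genes: Dio2, an activating deiodinase, and Crym, which binds the hormone in the cytosol, were higher in all mutants by 4.60 and 0.41, and the receptor Thra was lower by 0.27 on the log2 scale. Of 10 tested genes of steroid sulfation and conversion, 1 passed, Hsd17b11 at 0.61.

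Of 15 tested nuclear receptors and related factors, 2 were lower in all mutants, again beside 15.9% of all genes. The RNA of Esr1, the oestrogen receptor alpha, fell by 0.54 (SE 0.0981, adjusted p = 5.8e-04) and that of Ghr, the growth hormone receptor, by 0.41 (SE 0.0898, adjusted p = 0.00221). For the protein the paper on these mice reports the opposite direction: by Western blot, ESR1 was higher in P125 mutants of both sexes. The lower Esr1 RNA is therefore not a statement about the receptor protein. Without female mutant 4, where 21.0% of all genes were called, 5 of the 18 anion carriers, 6 of 14 prostaglandin, 4 of 9 thyroid hormone, 1 of 10 steroid and 2 of 15 receptor genes were called. Nothing particular to these lists is read from the counts.

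Marker genes of other cell types moved with the genotype. In all mutants, with 15.9% of all genes called, 10 of 10 macrophage, 5 of 8 fibroblast and 7 of 8 injury markers were higher, and 6 of 7 loop and distal tubule and 4 of 8 collecting duct markers were lower. Without female mutant 4 these counts were 10, 6, 7, 6 and 4. Egf, a growth factor of the distal tubule, fell by 1.12 (SE 0.162, adjusted p = 7.8e-05). Of the 12 proximal tubule markers, Miox, named after its value was seen, was lower, at -0.86, and 11 did not pass, whereas 3 were lower without female mutant 4. The proximal tubule sum ranged from 54118 to 66570 CPM in male controls and from 45275 to 64819 in male mutants, and from 25097 to 33537 in female controls and from 11913 to 27960 in female mutants. Macrophage markers summed to 136 to 165 CPM in male controls, 249 to 725 in male mutants, 172 to 222 in female controls and 195 to 974 in female mutants. Markers of liver, adrenal gland and adipose tissue summed to at most 156, 8.88 and 441 CPM in any kidney. The 441 CPM of adipose markers was in female mutant 3, which also had the lowest Slco1a6. The next highest adipose sum was 132 CPM, in female control 3. The part of these shifts in the lower Slco1a6 and Slco4c1 was not tested.

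The correlation of log2 CPM over the 20 mice is given as a description because the points share groups and litters. By it, the genes most like Slco1a1 were the Y-linked Uty (r = 0.994), Ddx3y (0.994) and Kdm5d (0.994). Slco1a1 was chosen for its male excess, so nothing is read from this likeness. Over the 10 males alone the genes most like Slco1a1 were Srd5a2, the steroid reductase that forms dihydrotestosterone (0.968), Tcaim (0.952) and Sun1 (0.932), and Uty ranked 221st. The nearest to Slco1a6 were Lrrc66 (0.963), Hnmt, a histamine methyltransferase (0.963), and Egf (0.948). For Slco4c1 they were Ankrd13c (0.963), Nudt12 (0.961) and Ugt1a7c, a glucuronosyltransferase (0.954).

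The genes most like Slco3a1 were Chst7, a sulfotransferase (0.989), Pzp (0.986) and Galns (0.986), and those most like Slco2a1 were Slc7a12 (0.938), Dsg2 (0.937) and Abcc1 (0.933). For Slco2b1 they were Thsd7a (0.913), Ptpro, a podocyte phosphatase (0.900), and Gca (0.883). Without female mutant 4 the same 3 genes led for Slco1a1, Slco1a6, Slco2a1 and Slco4c1, while Nbeal2 (0.918) replaced Gca for Slco2b1, and Cyp2j13 (0.988) and Sdc2 (0.988) replaced Pzp and Galns for Slco3a1.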

How the data were processed

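Counts were made by the authors before deposit: per the labels and the submitters' processing notes, fastp 0.23.2 served for trimming and STAR 2.7.10b for alignment to mm10. The deposited counts are integers for each gene symbol and were not normalized. The counting tool, the annotation and the use of strand are not given in the sources used here. The members and gene lists were chosen with earlier results of these data known.

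The counts were tested here with edgeR 4.0.16 under R 4.3.3 (TMM, filterByExpr, quasi-likelihood test, Benjamini-Hochberg adjustment over all genes tested, threshold 0.01). In males and in females, mutants were set against controls with litter as covariate. The comparison of all 20 mice and the sex-by-genotype term used the groups of sex and litter as covariate. Males were compared with females by the same fit, without a test for any member. All 6 members passed the filter on low counts, except Slco1a1 in females, and in the fits of all mice Slco1a1 passed only through its male counts. Log2 CPM used a prior count of 2. Alternatives were DESeq2 1.42.0 size factors and Wald test, other filters, no litter term, 1 fit of all mice and leaving out each mouse. The gene lists without female mutant 4 and the pooled ratio without each mouse were added after seeing the data. The fit was tested on simulated data. Libraries of a group differed by a chi-square per gene of 6.11 to 112, so none was a repeat deposit. Mice are separate animals.

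Genes named from a list were the up to 3 called over all mice, with no overlap in either sex and the largest change, and further named genes are marked. Exon lengths and shared 50-base windows came from GENCODE M21 (GRCm38), where identical windows in another gene were counted, and promoter sequences from RefSeq GRCm38.p6. Depth was 11307741 to 19324073 counts, and intervals for pooled counts cover counting error only.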

Additional observations from a re-analysis of the deposited data

Results flagged for a closer look

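In 2 groups 1 mouse lay far from the other 4, as judged by its gap to the nearest mouse over the range of the group. Chance alone flags about 1 in 20 groups. Slco1a1 in female control 3 was at 0.236 CPM, which is 4 counts, and the next female control was at 0.0596 CPM. Slco2b1 in male mutant 5 was at 19.4 CPM, and the next male mutant was at 24.5 CPM. The lowest male control for Slco2b1, at 20.8 CPM, was from the same litter C. No explanation was tested for either value.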

How the results depend on the processing

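The number of members called in males was 1, and it was 2 (Slco1a6 and Slco4c1) with no filter on low counts, with no litter term and with the DESeq2 Wald test, 0 in 1 fit of all 20 mice, and 0 to 2 when 1 mouse was left out. In females it was 0, and 1 (Slco1a6) with the DESeq2 Wald test and in 1 fit of all 20 mice. Over all mice it was 2, and 1 to 2 when 1 mouse was left out. For the sex-by-genotype term it was 0 throughout. The fitted log2 difference of Slco1a1 between the sexes in controls was 12.85, and 12.53 to 16.21 when 1 mouse was left out, with 13.90 without female control 3 and 16.21 without male control 4.

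Changes of sign occurred in values that were not called. Slco3a1 in males was -0.0056 without the litter term, and Slco2a1 over all mice was -0.0052 without the filter and -5.7e-04 without the litter term. When 1 mouse was left out, Slco1a1 in males ranged from -0.0903 to 0.42, and Slco2a1 from -0.058 to 0.16 in males, from -0.16 to 0.052 in females and from -0.069 to 0.066 over all mice. Slco3a1 ranged from -0.0076 to 0.0246 in males, from -0.0025 to 0.22 in females and from -0.0041 to 0.10 over all mice. The sex-by-genotype terms ranged from -0.14 to 0.47 for Slco4c1, from -0.0096 to 0.27 for Slco2a1, from -0.0105 to 0.22 for Slco1a6 and from -0.18 to 0.0246 for Slco3a1. The cause of these moves was not tested.

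Slco1a6 over all mice was called under all 25 alternatives, with adjusted p from 2.2e-07 to 0.00202. No paired analysis was possible because the labels give no replicate numbers, and the numbers here only name the mice. A stricter filter of 10 counts in every mouse left no value of Slco1a1 where females entered. The count of all genes called was 1185 in males, and 2001 with the DESeq2 Wald test. In females it was 92, and 230 without the filter, 172 without the litter term, 928 with the DESeq2 Wald test, 856 in 1 fit of all mice and 3 to 866 when 1 mouse was left out.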
